A study of Mus musculus with 20 samples.

Results

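A set of 8 genes of the juxtaglomerular apparatus of the kidney was followed in the kidneys of wild-type and Col4a3-/- mice. They were chosen by symbol: Gja5, Gja4, Akr1b7, Rgs5 and Crip1 as genes of juxtaglomerular cells and of the vessel wall they belong to, and Nos1, Ptgs2 and Ptges as genes of the macula densa and of renal prostaglandin synthesis. All 8 were found among the 47069 Ensembl genes of the count table, and all 8 passed the filter on low counts. The question was how these genes differed between diseased and healthy kidneys, and between treated and untreated diseased kidneys.

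RNA-seq was performed on total RNA from kidneys of 20 male mice at 15 weeks of age. The WT group held 5 wild-type mice without treatment, and the other 15 mice were Col4a3-/- mice. These lack a working gene for a type IV collagen chain of the glomerular basement membrane and model Alport syndrome. All mice came from a cross of the 129SJ and C57Bl/6J strains, and every treatment began at 5 weeks of age. Of the Col4a3-/- mice, 6 received weekly subcutaneous PBS (Veh), 6 received the miR-21 inhibitor Lademirsen weekly at 50 mg/kg (Anti-miR-21), and 3 drank water with the angiotensin-converting enzyme inhibitor ramipril at 11 mg/L and also received PBS (ACEi). The deposited library table gives the ramipril dose as 4 mg/kg instead. The knockout is present throughout the body, and no group was a wild-type group that received a drug.

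The juxtaglomerular apparatus lies where the thick ascending limb of a nephron touches its own glomerulus. The macula densa, a plaque of tubule cells, senses salt and signals through prostaglandin E2 and nitric oxide to the juxtaglomerular cells, which are modified smooth muscle cells of the afferent arteriole, are coupled by connexins and secrete renin. Angiotensin II holds renin back in a feedback loop, so that blocking its formation is known to raise renin and to recruit more renin cells along the arteriole.

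The estimated counts summed to between 28474301 and 29479629 per mouse. Values are given as CPM, counts scaled to library size with TMM, whose factors ran from 0.771 to 1.264. Col4a3 lay between 194 and 237 CPM in WT mice and between 27.9 and 74.8 CPM in Col4a3-/- mice, with no overlap. The kidney tubule markers Umod and Slc34a1 averaged 5131 and 8514 CPM in WT. A label on the extraction describes adipose tissue, and the summed level of 6 adipocyte markers ran from 29.7 to 61.9 CPM in WT and ACEi mice, had a median of 253 CPM in Veh, and reached 561 CPM in Veh replicate 1 and 374 CPM in Anti-miR-21 replicate 4. Veh replicate 1 also had the highest urothelial marker sum, 191 CPM, and WT replicate 4 the highest of its group, 35.1 CPM. Without Veh replicate 1, the number of these 8 genes called was 5 in Veh versus WT, 5 in Anti-miR-21 versus Veh and 2 in ACEi versus Veh. Without Anti-miR-21 replicate 4, 4 were called in Anti-miR-21 versus Veh. Without WT replicate 4, 7 were called in Veh versus WT. The shares of all genes called in these fits are not given here. The first part of the library names took 2 values and was read here as the flow cell, with 13 libraries in flow cell A and 7 in flow cell B. Flow cell A held 3 of 5 WT, 4 of 6 Veh, 5 of 6 Anti-miR-21 and 1 of 3 ACEi mice, so flow cell and group were not balanced.

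A gene was called different where edgeR's quasi-likelihood test gave an adjusted p under 0.05 over the 17622 genes tested. In Veh versus WT, 6 of the 8 genes were called, beside 73.0% of all genes. Of these, 5 were higher (Gja5, Gja4, Rgs5, Crip1 and Ptgs2), beside 39.0%, and Nos1 was lower, beside 34.0%. In Anti-miR-21 versus Veh, 5 of the 8 were called, beside 59.2% of all genes. Of these, 4 were lower (Rgs5, Crip1, Ptgs2 and Ptges), beside 30.5%, and Nos1 was higher, beside 28.8%. In ACEi versus Veh, 3 of the 8 were called, beside 40.1% of all genes, with Akr1b7 higher, beside 21.0%, and Rgs5 and Crip1 lower, beside 19.1%. In these 3 comparisons the share of the 8 genes called lay near that of all genes, so the counts say nothing particular about them.

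In Anti-miR-21 versus ACEi, only Akr1b7 of the 8 was called, beside 0.584% of all genes, and it was lower under Anti-miR-21, beside 0.221% lower and 0.363% higher among all genes. Against WT, 5 of the 8 were called in Anti-miR-21 mice, beside 43.7%, with 4 higher (Gja5, Rgs5, Crip1 and Ptgs2), beside 23.9%, and Ptges lower, beside 19.8%. In ACEi versus WT, 5 of the 8 were called, beside 47.7%, all of them higher (Gja5, Akr1b7, Rgs5, Crip1 and Ptgs2), beside 25.2%. No overlap in CPM was seen for 5 of the 8 genes in Veh versus WT, beside 54.9% of all genes, for 3 in Anti-miR-21 versus Veh, beside 36.4%, and for 3 in ACEi versus Veh, beside 38.6%. The same held for 1 gene in Anti-miR-21 versus ACEi, beside 8.99%, for 3 in Anti-miR-21 versus WT, beside 23.8%, and for 5 in ACEi versus WT, beside 46.1%. The 8 genes had median log2 fold changes of 0.40 in Veh versus WT, −0.28 in Anti-miR-21 versus Veh and −0.16 in ACEi versus Veh, against 0.07, −0.04 and −0.05 for all genes.

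**Figure D1:**
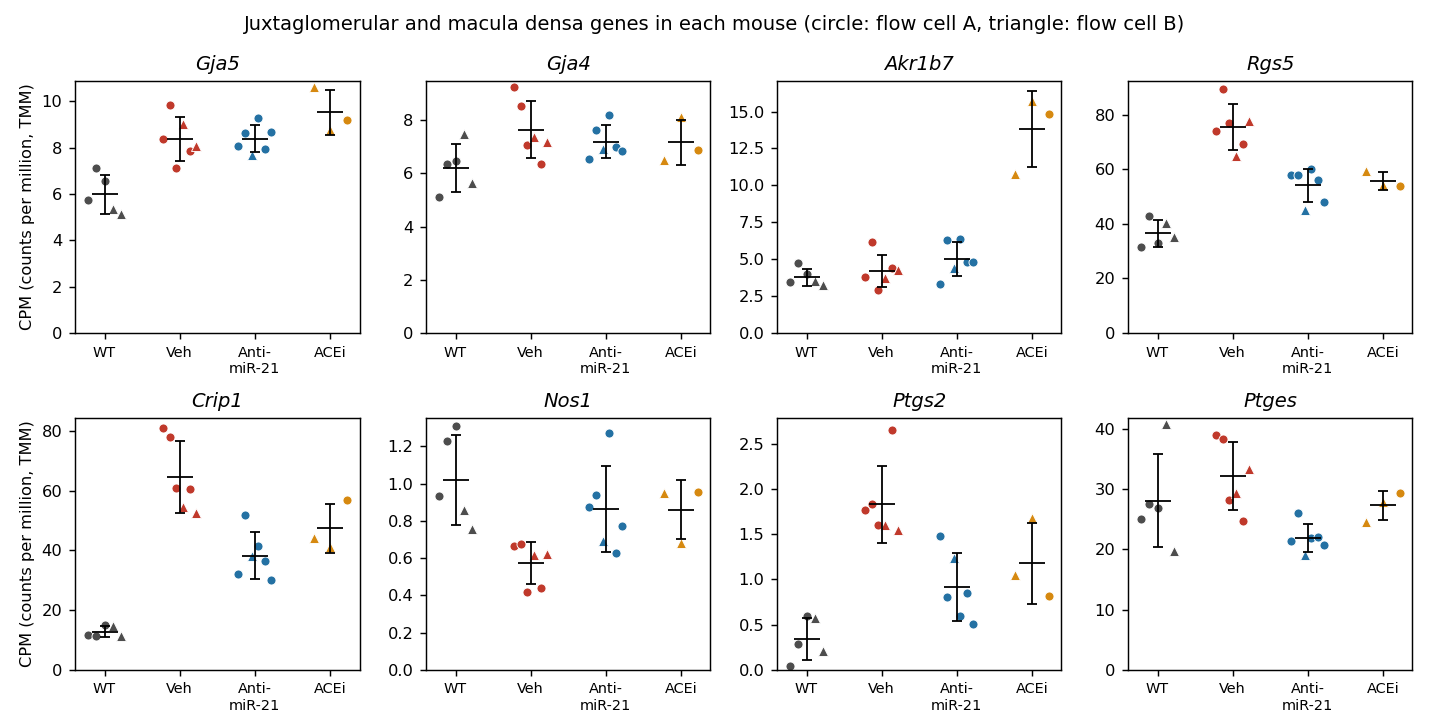
CPM of the 8 genes in each of the 20 mice by group, on axes that start at 0, with the group mean and SD as a black bar. Akr1b7 stands apart in the 3 ACEi mice (10.8 to 15.7 CPM), whereas Rgs5, Crip1 and Ptgs2 are highest in Veh and lower in the treated groups.

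The choice of scaling moved all genes. When libraries were scaled by their totals in place of TMM, the median over all genes, as a log2 fold change, moved from 0.07 to 0.65 in Veh versus WT, from −0.04 to −0.38 in Anti-miR-21 versus Veh and from −0.05 to −0.32 in ACEi versus Veh. The share of calls that were higher then moved from 53.4% to 81.2%, from 48.6% to 20% and from 52.4% to 20.5%. With upper-quartile scaling the share in ACEi versus Veh was 41.5%. The deposited FPKM values, which carry no TMM scaling, gave a like shift. In limma fits of log2(FPKM + 1) the shares of calls that were higher were 81.8%, 19.1% and 19.1%, in the same order. Below, changes are given relative to the TMM scaling, and calls of the 8 genes that turned with the scaling are given beside the gene.

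**Figure D2:**
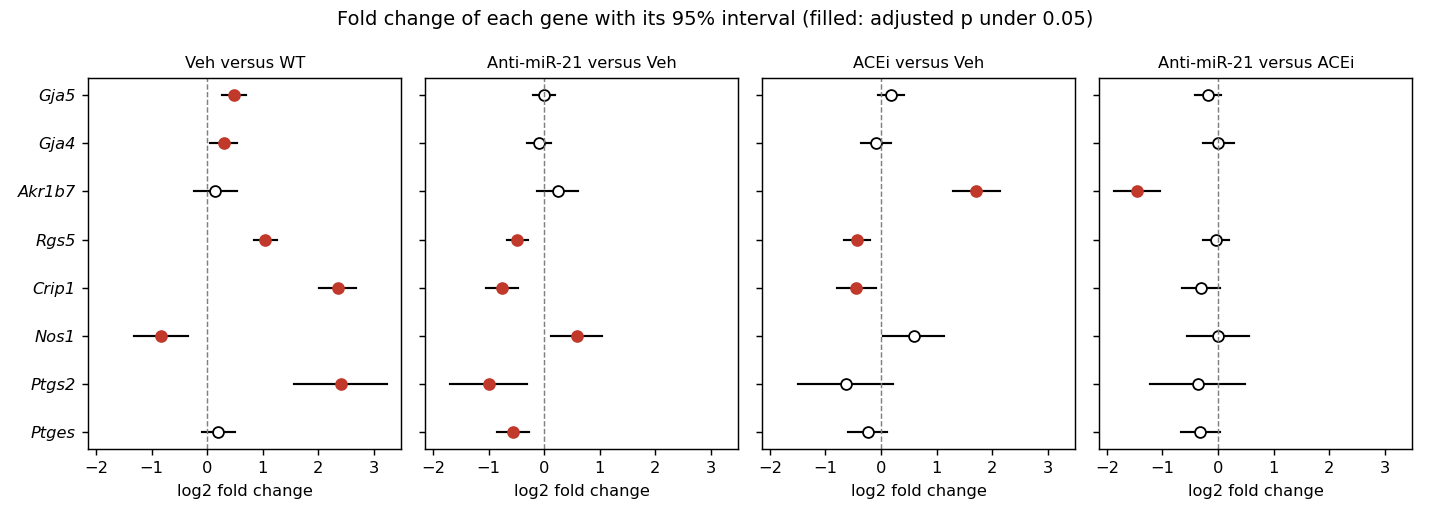
Log2 fold change of the 8 genes in 4 comparisons, with 95% intervals as lines and filled points where the adjusted p was under 0.05. Akr1b7 is the only one of the 8 with a filled point in the panel of Anti-miR-21 versus ACEi, at −1.46.

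Gja5 and Gja4 encode connexin 40 and connexin 37, gap junction proteins of arterial endothelium. Connexin 40 also couples the renin cells to their neighbours and is needed for renin to respond to pressure. Gja5 lies at chr3:96904693-97077416 on the plus strand (GRCm38) and Gja4 at chr4:127311421-127314039 on the minus strand. The annotated span of Gja5 overlaps other annotated genes, among them Gpr89 and 2 antisense genes, but the deposited FPKM of its short model accounted for a median of 103% of its counts.

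In WT mice Gja5 was measured at 5.74, 7.13, 6.54, 5.35 and 5.12 CPM. In Veh mice it ran from 7.14 to 9.83 with a median of 8.22, and in Anti-miR-21 mice from 7.70 to 9.29 with a median of 8.36. The 3 ACEi mice gave 10.6, 8.76 and 9.20. Every Col4a3-/- mouse lay above every WT mouse, and the 3 groups of Col4a3-/- mice overlapped. Gja5 was 5.98 ± 0.843 CPM in WT (SD, n = 5) and 8.38 ± 0.939 in Veh (SD, n = 6), a log2 fold change of 0.49 (SE 0.10, edgeR adjusted p = 0.00024). Under Anti-miR-21 it was 8.39 ± 0.591 CPM (SD, n = 6), a log2 difference from Veh of 0.00 with a 95% interval from −0.20 to 0.20. Under ACEi it was 9.52 ± 0.954 CPM (SD, n = 3), a log2 difference from Veh of 0.18 with an interval from −0.06 to 0.42 (edgeR adjusted p = 0.21). With library totals alone, Gja5 was lower under Anti-miR-21 than in Veh by a log2 fold change of −0.34 (edgeR adjusted p = 0.0054), a difference of the size of the shift in all genes. It was also called lower there in the limma fit of log2(FPKM + 1), at −0.25 (limma adjusted p = 0.0079). The median over all genes was −0.13 in that fit. Both treated groups stayed above WT, by 0.49 and 0.67 on the log2 scale (edgeR adjusted p = 0.00078 and 0.00014).

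Gja4, in contrast to Gja5, overlapped between all 4 groups. The WT mice gave 5.12, 6.35, 6.46, 7.48 and 5.62 CPM, and the Veh mice ran from 6.35 to 9.26 with a median of 7.28. Anti-miR-21 mice ran from 6.53 to 8.20 with a median of 6.94, and the ACEi mice gave 6.49, 8.12 and 6.88. The highest mouse was in Veh and the lowest in WT. Gja4 was 6.21 ± 0.898 CPM in WT and 7.63 ± 1.07 in Veh (SD, n = 5 and 6), a log2 fold change of 0.30 (SE 0.11, edgeR adjusted p = 0.024). This call was lost without WT replicate 1 or 5 or Veh replicate 1 or 2, where the adjusted p rose to at most 0.076. Neither treatment differed from Veh beyond the spread between mice, with log2 differences of −0.09 (95% interval −0.31 to 0.13) and −0.09 (−0.37 to 0.18). With library totals alone Gja4 was called lower than Veh in both, at −0.43 and −0.37, and both were called higher than WT, at 0.45 and 0.51 (edgeR adjusted p = 0.0057 and 0.0066).

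The arterial endothelial markers Efnb2, Sox17, Hey1, Dll4 and Bmx summed to between 24.6 and 43.0 CPM in WT and between 46.9 and 69.0 in Veh. Of the 5, 4 were called higher in Veh, beside 39.0% of all genes. In the treated groups their sum was between 39.6 and 51.5 CPM. The part of arterial endothelium in the levels of Gja5 and Gja4 was not tested, and in bulk kidney a change in the number of cells of a type and a change in RNA per cell cannot be told apart.

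Of 10 other connexins tested, 6 were called higher and 3 lower in Veh than in WT, beside 39.0% and 34.0% of all genes. Under Anti-miR-21, 2 were higher and 5 lower than in Veh, beside 28.8% and 30.5%. Under ACEi, 2 were higher and 3 lower, beside 21.0% and 19.1%. Among those lower in Veh than in WT were Gjb2 and Gjb1, connexins of epithelia. Gjb2 fell from 161 ± 41.6 to 40.8 ± 21.0 CPM and Gjb1 from 73.3 ± 9.87 to 23.1 ± 7.18 CPM (SD, n = 5 and 6), log2 fold changes of −1.98 and −1.67 (edgeR adjusted p = 1.5e-06 and 3.6e-08). Under Anti-miR-21 they were 1.30 and 1.14 above Veh on the log2 scale (edgeR adjusted p = 0.00024 and 9.3e-06), and under ACEi 1.53 and 0.93 above it (edgeR adjusted p = 0.00054 and 0.001).

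Akr1b7, an aldose reductase-like enzyme found in the adrenal cortex and in renin cells, set the ACEi group apart. It lies at chr6:34412334-34423142 on the plus strand. Its WT levels were 3.47, 4.71, 3.97, 3.51 and 3.27 CPM. Veh mice ran from 2.91 to 6.18 CPM with a median of 4.04, and Anti-miR-21 mice from 3.33 to 6.37 with a median of 4.80. The 3 ACEi mice gave 10.8, 15.7 and 14.8 CPM. Every ACEi mouse lay above all 17 other mice, which overlapped between their 3 groups.

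Akr1b7 was 13.8 ± 2.59 CPM under ACEi (SD, n = 3) and 4.21 ± 1.10 in Veh (SD, n = 6), a log2 fold change of 1.71 (SE 0.20, edgeR adjusted p = 1.2e-05) or 3.27-fold. Against WT, at 3.79 ± 0.577 CPM (SD, n = 5), the log2 fold change under ACEi was 1.86 (edgeR adjusted p = 7.6e-07). Anti-miR-21 mice, at 5.00 ± 1.17 CPM (SD, n = 6), had a log2 fold change of −1.46 against ACEi (edgeR adjusted p = 0.00079). Veh did not differ from WT beyond the spread (0.15, 95% interval −0.24 to 0.54, edgeR adjusted p = 0.48), nor Anti-miR-21 from Veh (0.25, −0.12 to 0.61, edgeR adjusted p = 0.23), although the latter was called at 0.41 without Veh replicate 2 (edgeR adjusted p = 0.039). With library totals alone Akr1b7 was called higher than in WT both in Veh, at 0.73 (edgeR adjusted p = 0.0014), and under Anti-miR-21, at 0.64 (edgeR adjusted p = 0.0091). The rise under ACEi stood in both flow cells. In flow cell A the 1 ACEi mouse had 14.8 CPM against at most 6.18 in 4 Veh mice, and in flow cell B 2 ACEi mice had 10.8 and 15.7 against at most 4.29 in 2 Veh mice.

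The submitters marked the FPKM entry of Akr1b7 as confounded with other genes, and a pseudogene on the other strand, Gm13857, overlaps its locus, so that reads may be shared with close relatives. Of 7 relatives of Akr1b7 and Crip1, 3 were called higher and 3 lower in ACEi versus Veh, beside 21.0% and 19.1% of all genes. Akr1b8, the neighbouring paralogue, moved the other way from Akr1b7, from 38.3 ± 7.58 CPM in Veh to 19.9 ± 0.998 under ACEi (SD, n = 6 and 3), a log2 fold change of −0.94 (edgeR adjusted p = 0.0033). Akr1b7 is also strongly expressed in the adrenal gland. The 8 adrenal cortex markers summed to between 2.45 and 2.98 CPM in ACEi mice and between 3.49 and 4.65 CPM in Veh mice, Cyp11b2 was at 0 in all mice, and Cyp11b1 and Nr5a1 averaged under 0.1 CPM in the ACEi group.

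Ren1 encodes renin, the hormone of the juxtaglomerular cell. It was measured at 488, 605 and 452 CPM in the ACEi mice and ran from 23.8 to 37.7 CPM in Veh mice. In Anti-miR-21 mice it ran from 62.1 to 93.8 CPM, and in WT mice it was 80.4, 98.2, 72.2, 80.6 and 41.7. The order of the groups therefore differed between the genes: Ren1 was lower in Veh than in WT (log2 fold change −1.33, edgeR adjusted p = 5.5e-07) and higher under Anti-miR-21 than in Veh (1.44, edgeR adjusted p = 4e-07), where Akr1b7 showed no call. Under ACEi Ren1 was 17.3-fold above Veh and Akr1b7 3.27-fold. Strains of the 129 type carry Ren2, a near-identical renin gene, whose reads cannot be told apart from those of Ren1 here.

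**Figure D3:**
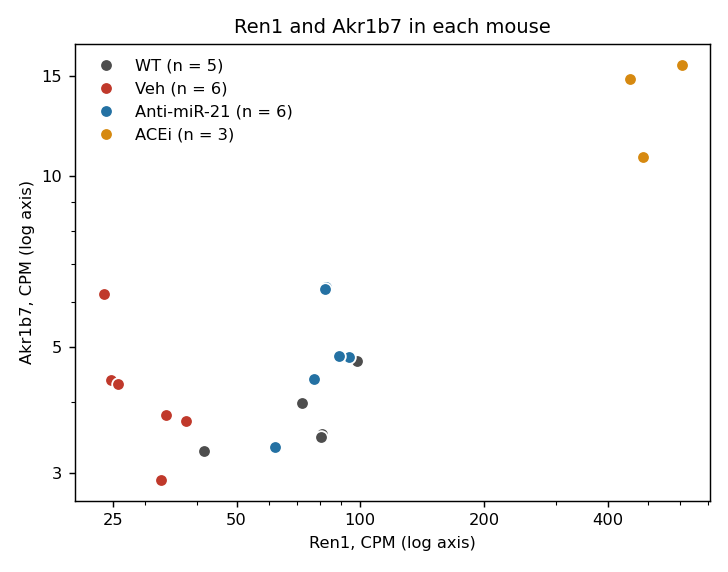
CPM of Ren1 and Akr1b7 in each of the 20 mice, both on log axes, coloured by group. The 3 ACEi mice lie apart at 452 to 605 CPM of Ren1 and 10.8 to 15.7 CPM of Akr1b7, while Ren1 separates Veh from Anti-miR-21 mice and Akr1b7 does not.

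The promoters of these genes, which rose together under ACEi, are shown as the 250 bases before the RefSeq start site (GRCm38.p6), at chr6:34412112-34412361 for Akr1b7 and chr1:133350424-133350673 for Ren1, both on the plus strand. The Ensembl start of Akr1b7 lies within its window. Capitals mark the matches to 3 motifs searched on both strands, the TATA box TATAAA, the CCAAT box CCAAT and the core of the cAMP response element TGACG.
Akr1b7: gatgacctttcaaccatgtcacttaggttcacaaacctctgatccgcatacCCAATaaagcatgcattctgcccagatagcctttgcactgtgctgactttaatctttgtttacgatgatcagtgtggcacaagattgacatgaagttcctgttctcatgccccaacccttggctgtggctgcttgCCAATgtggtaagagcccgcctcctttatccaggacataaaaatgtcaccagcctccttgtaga
Ren1: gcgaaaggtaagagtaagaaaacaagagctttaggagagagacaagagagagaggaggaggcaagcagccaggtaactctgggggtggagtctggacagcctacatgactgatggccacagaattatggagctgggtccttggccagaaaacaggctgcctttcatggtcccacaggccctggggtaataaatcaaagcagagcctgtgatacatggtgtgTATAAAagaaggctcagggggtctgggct
Akr1b7 held 2 CCAAT boxes and Ren1 held 1 TATA box, which begins 29 bases before the start. Neither window held TGACG. Among 32851 RefSeq promoters of the same length, 33.8% held CCAAT, 12.4% held TATAAA and 17.8% held TGACG, so the windows shared none of the 3 motifs and each motif found is common. The longer full element TGACGTCA, a palindrome that contains the core, was held by 1.55% of promoters and by neither window. Of the other genes, the windows of Gja5, Gja4 and Nos1 each held 1 TGACG, and that of Rgs5 held 1 CCAAT.

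Of 22 genes of renin cells and of the cyclic AMP pathway that drives renin, 3 were called higher and 4 lower in ACEi versus Veh. Among all genes 21.0% were called higher and 19.1% lower. The 22 had a median log2 fold change of −0.10. Besides Ren1, Agtr1a, an angiotensin II receptor, rose from 31.7 ± 4.46 to 54.6 ± 7.31 CPM (SD, n = 6 and 3), and it rose under Anti-miR-21 to 53.0 ± 4.43 CPM (SD, n = 6). Adora1, the adenosine receptor by which the macula densa restrains renin, fell from 14.2 ± 3.8 CPM in Veh to 5.40 ± 1.65 under ACEi and 6.07 ± 1.2 under Anti-miR-21 (SD, n = 6, 3 and 6). Adcy5, an adenylyl cyclase, fell under ACEi by 0.76 on the log2 scale. In Anti-miR-21 versus Veh 4 of the 22 were higher and 10 lower, beside 28.8% and 30.5% of all genes. In Veh versus WT 10 were higher and 7 lower, beside 39.0% and 34.0%. There Ptger4, a prostaglandin E2 receptor that raises cyclic AMP, was up by 2.52 on the log2 scale. Casr, the calcium-sensing receptor, was lower, at −0.87.

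Rgs5 and Crip1 were the members called higher in Veh than in WT and called lower than Veh under both treatments. Rgs5, a regulator of G protein signalling that marks pericytes and arteriolar smooth muscle, lies at chr1:169655501-169695813 on the plus strand. Crip1, a small LIM-domain protein expressed in renin cells and in many other cells, lies at chr12:113146316-113153879 on the plus strand.

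Rgs5 was measured at 31.4, 42.9, 32.8, 40.2 and 35.1 CPM in WT mice. In Veh mice it ran from 64.9 to 89.4 CPM with a median of 75.6, and in Anti-miR-21 mice from 45.2 to 60.0 with a median of 56.8. ACEi mice gave 59.4, 54.1 and 53.7. WT lay lowest and Veh highest with no overlap with any other group, and the treated groups overlapped each other in between. Rgs5 was 36.5 ± 4.91 CPM in WT and 75.4 ± 8.38 in Veh (SD, n = 5 and 6), a log2 fold change of 1.05 (SE 0.10, edgeR adjusted p = 5e-09). It was 54.1 ± 5.99 CPM under Anti-miR-21 (SD, n = 6), −0.48 against Veh (SE 0.09, edgeR adjusted p = 0.00013). Under ACEi it was 55.7 ± 3.17 CPM (SD, n = 3), −0.44 against Veh (SE 0.11, edgeR adjusted p = 0.0041). The treatments differed from each other by −0.04 on the log2 scale, with an interval from −0.27 to 0.19. Both treated groups stayed above WT, by 0.57 and 0.61 (edgeR adjusted p = 8.6e-05 and 0.00019).

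The unit mattered for Rgs5. The deposited FPKM values use another gene model, which for Rgs5 ends 2287 bases short of the Ensembl 3′ end and accounted for a median of 7.37% of the counts. On log2(FPKM + 1) with limma, Rgs5 was no longer called in Anti-miR-21 versus Veh (−0.44, limma adjusted p = 0.11) or in ACEi versus Veh (−0.33, limma adjusted p = 0.39). The calls of the treated groups against WT were lost as well, at 0.43 for Anti-miR-21 (limma adjusted p = 0.19) and 0.55 for ACEi (limma adjusted p = 0.16).

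**Figure D4:**
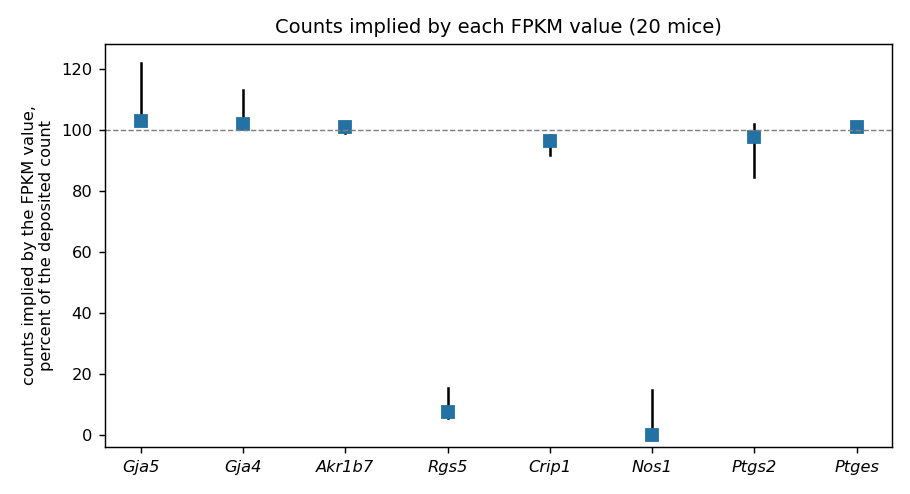
Counts implied by the FPKM value of each gene, as percent of its deposited count, with the median of 20 mice as a square and the lowest and highest mouse as a line. Rgs5 (median 7.37%) and Nos1 (median 0%) stand far below the other 6 genes, whose medians lie between 96.3% and 103%.

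Because miR-21 was the target of 1 treatment, the 3′ UTRs of the 8 genes were searched for matches to its seed. The mature miRNA mmu-miR-21a-5p (RefSeq, chr11:86584120-86584141, minus strand, GRCm38.p6) is shown with its seed, bases 2 to 8, in capitals. The sites, in the GENCODE M21 annotation of the same build, are shown with 26 bases each and the bases that pair with the seed, or the A facing base 1, in capitals.
mmu-miR-21a-5p: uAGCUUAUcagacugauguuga
Rgs5, chr1:169694390-169694415: caaatcaattgATAAGCTAacaagca
Nos1, chr5:117956590-117956615: gccaagctctgATAAGCTtccatctt
Nos1, chr5:117956679-117956704: gtcacggattctTAAGCTAagtgggc
Ptgs2, chr1:150106348-150106373: ctcttactttctTAAGCTgtcaggtt
Rgs5 held 1 match of 8 bases, Nos1 held 2 matches of 7 bases and Ptgs2 held 1 match of 6 bases, all on the plus strand. No match was found in the annotated 3′ UTRs of Gja5, Gja4, Akr1b7, Crip1 and Ptges. A match of 7 or 8 bases was present in 11.1% of 21015 genes, and in 26.6% of the 1937 genes with 3′ UTRs within 20% of the length of that of Rgs5 and 37.5% of the 992 near that of Nos1. Rgs5 was lower and Nos1 higher under Anti-miR-21 than in Veh. Under ACEi Rgs5 was lower by a like amount. Nos1 was 0.59 above Veh on the log2 scale under each treatment, called under Anti-miR-21 but not under ACEi. The paper reports that kidney miR-21, measured by RT-PCR, was also lower under ACEi than in Veh, though less so than under Anti-miR-21. The part of these sites and of miR-21 in the levels was not tested. The sites of Rgs5 and Nos1 lie in the stretches that the FPKM models leave out.

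Crip1 had the largest fold change between WT and Veh of the 5 juxtaglomerular and vascular genes. The WT mice gave 11.5, 11.4, 14.9, 14.5 and 11.3 CPM. Veh mice ran from 52.5 to 81.0 CPM with a median of 60.7, and Anti-miR-21 mice from 30.0 to 52.0 with a median of 37.2. ACEi mice gave 44.1, 41.2 and 56.9. All Col4a3-/- mice lay above all WT mice, Anti-miR-21 mice lay below all Veh mice, and 1 ACEi mouse lay within the Veh range. Crip1 was 12.7 ± 1.82 CPM in WT and 64.6 ± 12.1 in Veh (SD, n = 5 and 6), a log2 fold change of 2.35 (SE 0.15, edgeR adjusted p = 6.1e-11). It was 38.3 ± 7.86 CPM under Anti-miR-21 (SD, n = 6), −0.75 against Veh (SE 0.14, edgeR adjusted p = 8.2e-05). Under ACEi it was 47.4 ± 8.34 CPM (SD, n = 3), −0.45 against Veh (SE 0.17, edgeR adjusted p = 0.039). That call was lost with flow cell in the model (−0.38, edgeR adjusted p = 0.072), with no filter, and without any 1 of 6 mice, Veh replicates 1, 2, 3 and 5 and ACEi replicates 1 and 2, where the adjusted p reached at most 0.19. The treatments themselves did not differ beyond the spread for Crip1 (−0.31, 95% interval −0.65 to 0.04, edgeR adjusted p = 0.4).

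The summed level of mural cell markers, genes of the pericytes and smooth muscle cells of vessels, was lowest in WT and highest in Veh, like Rgs5 and Crip1. Their 11 genes summed to between 266 and 328 CPM in WT, 774 and 989 in Veh, 425 and 550 under Anti-miR-21 and 533 and 601 under ACEi. Of the 11, 8 were called higher and 2 lower in Veh than in WT, with log2 fold changes from −1.11 to 2.40, beside 39.0% higher and 34.0% lower among all genes. Under Anti-miR-21, 8 were lower and 1 higher than in Veh, beside 30.5% and 28.8%, and under ACEi 9 were lower and 1 higher, beside 19.1% and 21.0%. Macrophage markers, 6 genes, summed to between 140 and 153 CPM in WT, 816 and 998 in Veh, 341 and 517 under Anti-miR-21 and 449 and 532 under ACEi, and all 6 were called higher in Veh than in WT and lower than Veh under each treatment. Fibroblast markers, 6 genes, summed to between 149 and 394 CPM in WT, 3374 and 4351 in Veh, 698 and 1550 under Anti-miR-21 and 1751 and 1918 under ACEi. All 6 were called higher in Veh than in WT, 5 lower than Veh under Anti-miR-21 and 3 under ACEi. The part of these cells in the levels of Rgs5 and Crip1 was not tested.

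**Figure D5:**
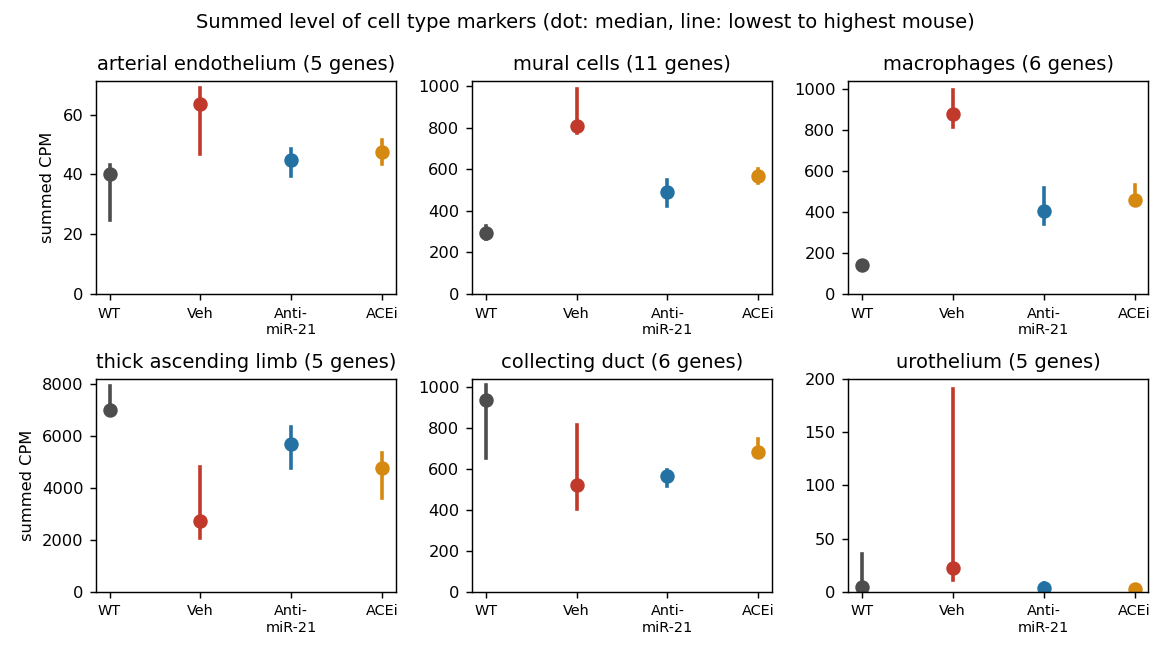
Summed CPM of the markers of 6 cell types in each group, with the median mouse as a dot and a line from the lowest to the highest mouse. Mural cell and macrophage sums are highest in Veh (774 to 989 and 816 to 998 CPM), and the thick ascending limb sum is lowest there.

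Relatives of Rgs5 were followed as well. Of 9 other RGS genes of the R4 family, 6 were tested. All 6 were called higher in Veh than in WT, beside 39.0% of all genes, and their median was 2.0 on the log2 scale. Rgs16 rose from 0.366 ± 0.232 to 28.4 ± 2.31 CPM and Rgs1 from 0.058 ± 0.047 to 2.09 ± 0.376 CPM (SD, n = 5 and 6). Under Anti-miR-21, 5 of the 6 were lower than in Veh, beside 30.5% of all genes, with Rgs16 at 6.26 ± 3.35 CPM (SD, n = 6). Under ACEi, 2 of the 6 were lower, beside 19.1% of all genes, and the other 4 were not called. The 2 were Rgs16 at 9.17 ± 2.13 CPM and Rgs3 at 30.8 ± 1.74 CPM (SD, n = 3). The 6 ran there from −1.63 to 0.23 on the log2 scale. Of the 7 relatives of Akr1b7 and Crip1, Csrp1, a LIM-domain protein of smooth muscle, rose from 80.2 to 230.0 CPM in Veh, while Csrp2 fell from 135 to 61.3 CPM.

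Nos1 encodes neuronal nitric oxide synthase, the nitric oxide source of the macula densa. It lies at chr5:117781032-117958840 on the plus strand and, like Ptgs2, was counted rarely, with 15 to 34 counts per mouse. The WT mice gave 0.935, 1.23, 1.31, 0.858 and 0.755 CPM. Veh mice ran from 0.420 to 0.674 CPM with a median of 0.619, and Anti-miR-21 mice from 0.627 to 1.27 with a median of 0.825. ACEi mice gave 0.951, 0.680 and 0.954. Every Veh mouse lay below every WT and every ACEi mouse, and the Anti-miR-21 mice overlapped all groups.

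Nos1 was 1.02 ± 0.240 CPM in WT and 0.572 ± 0.113 in Veh (SD, n = 5 and 6), a log2 fold change of −0.83 (SE 0.23, edgeR adjusted p = 0.0031). With library totals alone the difference was −0.25 (edgeR adjusted p = 0.33), where the median over all genes was 0.65, against 0.07 with TMM. Under Anti-miR-21 Nos1 was 0.863 ± 0.231 CPM (SD, n = 6), 0.59 above Veh on the log2 scale (SE 0.22, edgeR adjusted p = 0.027), a call lost without Veh replicate 3 or 5 or Anti-miR-21 replicate 4 (adjusted p at most 0.087). It was also lost with library totals alone (0.25, edgeR adjusted p = 0.32), with upper-quartile scaling (0.51, edgeR adjusted p = 0.051) and with no filter on low counts (0.60, edgeR adjusted p = 0.053). Under ACEi it was 0.861 ± 0.157 CPM (SD, n = 3), also 0.59 above Veh but short of the threshold (95% interval 0.04 to 1.14, edgeR adjusted p = 0.083). From high to low the groups were WT, Anti-miR-21, ACEi and Veh, and the neighbours WT, Anti-miR-21 and ACEi did not differ beyond their spread.

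The FPKM values listed Nos1 at 0 in 4 of 5 WT, 3 of 6 Veh, 3 of 6 Anti-miR-21 and 3 of 3 ACEi mice. The FPKM model of Nos1 lacks 5027 bases at the 3′ end of the gene and accounted for a median of 0% of its counts, so nearly all counts came from parts of the Ensembl gene outside that model. The locus also overlaps the antisense gene Gm26995 and the unclassified transcript Gm37028. Whether strand was used in counting is not given in the sources used here, so that their reads cannot be told apart from those of Nos1.

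Ptgs2 encodes cyclooxygenase 2, which is inducible in the macula densa, in interstitial cells and in inflamed tissue. It lies at chr1:150100031-150108227 on the plus strand and was counted 1 to 97 times per mouse. The WT mice gave 0.0445, 0.287, 0.591, 0.572 and 0.210 CPM. Veh mice ran from 1.55 to 2.66 CPM with a median of 1.69, and Anti-miR-21 mice from 0.504 to 1.48 with a median of 0.826. ACEi mice gave 1.05, 1.68 and 0.817. Veh lay above all WT and all Anti-miR-21 mice, and 1 ACEi mouse lay within the Veh range.

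Ptgs2 was 0.341 ± 0.237 CPM in WT and 1.83 ± 0.421 in Veh (SD, n = 5 and 6), a log2 fold change of 2.41 (SE 0.40, edgeR adjusted p = 1.7e-05). Under Anti-miR-21 it was 0.913 ± 0.377 CPM (SD, n = 6), −1.0 against Veh (SE 0.33, edgeR adjusted p = 0.014). Under ACEi it was 1.18 ± 0.447 CPM (SD, n = 3), −0.63 against Veh with a 95% interval from −1.49 to 0.22 (edgeR adjusted p = 0.23). On log2(FPKM + 1) the ACEi difference was called, at −0.26 (limma adjusted p = 0.0071). Both treated groups stayed above WT, by 1.41 and 1.77 on the log2 scale (edgeR adjusted p = 0.0084 and 0.0034). The call of Anti-miR-21 against WT was lost in flow cell A alone, at 1.47, and 5 of 6 Anti-miR-21 mice lay above all WT mice. From low to high the groups were WT, Anti-miR-21, ACEi and Veh, and neither Anti-miR-21 from ACEi (−0.36, 95% interval −1.22 to 0.49) nor ACEi from Veh differed beyond the spread. In Veh versus WT, Nos1 was thus lower and Ptgs2 higher.

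Ptges encodes the inducible microsomal prostaglandin E synthase, which acts downstream of cyclooxygenase 2 and is abundant in collecting duct. It lies at chr2:30889471-30929863 on the minus strand, and the pseudogene Gm13400 overlaps its locus. The WT mice gave 25.1, 27.6, 26.9, 40.8 and 19.8 CPM. Veh mice ran from 24.8 to 39.0 CPM with a median of 31.4, and Anti-miR-21 mice from 19.1 to 26.0 with a median of 21.7. ACEi mice gave 24.6, 27.9 and 29.4. The WT group spread widest, and WT replicate 4, at 40.8 CPM, lay above all other mice.

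Ptges was 28.1 ± 7.76 CPM in WT and 32.2 ± 5.71 in Veh (SD, n = 5 and 6), a log2 difference of 0.20 (95% interval −0.10 to 0.50, edgeR adjusted p = 0.22). Without WT replicate 4 it was 0.37 and called (edgeR adjusted p = 0.011). It was also called with library totals alone, at 0.78 (edgeR adjusted p = 0.00016), and on log2(FPKM + 1), at 0.72 (limma adjusted p = 0.00021). That mouse also had the highest sum of the 6 collecting duct markers in WT, 1008 CPM against a WT median of 936, and of the urothelial markers. Their part in its Ptges level was not tested. Under Anti-miR-21 Ptges was 21.9 ± 2.26 CPM (SD, n = 6), −0.56 against Veh (SE 0.14, edgeR adjusted p = 0.0016). Under ACEi it was 27.3 ± 2.45 CPM (SD, n = 3), −0.24 against Veh (95% interval −0.59 to 0.11, edgeR adjusted p = 0.28). That difference was called with library totals alone, at −0.51 (edgeR adjusted p = 0.028), and on log2(FPKM + 1), at −0.45 (limma adjusted p = 0.036). Anti-miR-21 was also lower than WT by −0.36 (edgeR adjusted p = 0.049), a call that was lost under most other settings, among them library totals alone (−0.12, edgeR adjusted p = 0.55) and upper-quartile scaling (−0.33, edgeR adjusted p = 0.08), and stood at −0.19 without WT replicate 4. The collecting duct markers summed to medians of 518 CPM in Veh, 562 under Anti-miR-21 and 681 under ACEi.

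Of 18 genes of prostaglandin synthesis, transport and reception, 12 were called higher and 4 lower in Veh than in WT. Among all genes 39.0% were called higher and 34.0% lower. The 18 had a median of 0.85 on the log2 scale. Hpgds, the prostaglandin D synthase of blood-derived cells, rose from 0.647 ± 0.240 to 11.3 ± 1.25 CPM and Ptger4 from 3.55 ± 0.829 to 20.3 ± 3.68 CPM (SD, n = 5 and 6). Ptgfr and Ptger3, receptors for prostaglandins F2α and E2, fell by 1.31 and 1.19 on the log2 scale. Under Anti-miR-21, 5 of the 18 were higher and 11 lower than in Veh, beside 28.8% and 30.5% of all genes. Ptgs1, the constitutive cyclooxygenase, fell from 35.3 ± 5.05 to 19.3 ± 2.06 CPM (SD, n = 6 and 6). Under ACEi, 2 were higher and 6 lower, beside 21.0% and 19.1%. Ptgis, prostacyclin synthase, fell there from 13.2 ± 2.34 to 7.20 ± 0.809 CPM (SD, n = 6 and 3).

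In the nitric oxide pathway, 10 of 15 genes were called higher and 3 lower in Veh than in WT. Among all genes 39.0% were called higher and 34.0% lower. The 15 had a median of 1.47 on the log2 scale. Arg2, an arginase that competes for arginine, rose from 6.32 ± 3.46 to 28.0 ± 5.15 CPM, whereas Ass1, which makes arginine precursor in the proximal tubule, fell from 4304 ± 724 to 783 ± 383 CPM (SD, n = 5 and 6). Ddah1, which breaks down an inhibitor of nitric oxide synthases, and its paralogue Ddah2 moved apart, at −2.0 and 2.05 on the log2 scale. Under Anti-miR-21, 3 of the 15 were higher and 6 lower than in Veh, beside 28.8% and 30.5% of all genes. Ass1 was there at 2744 ± 624 and Ddah1 at 340.0 ± 58.8 CPM (SD, n = 6). Under ACEi, 3 were higher and 3 lower, beside 21.0% and 19.1%. Ass1 was there at 2777 ± 623 CPM (SD, n = 3) and Pde5a, which breaks down cyclic GMP, at −1.0 on the log2 scale.

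Of 9 other macula densa genes, 3 were called higher and 5 lower in Veh than in WT, beside 39.0% and 34.0% of all genes. Most of the 9 are shared with the thick ascending limb, and their median was −0.71 on the log2 scale. Slc9a2, a sodium-proton exchanger of the macula densa, fell from 49.5 ± 6.30 to 18.8 ± 2.85 CPM and Bsnd, a chloride channel subunit, from 95.4 ± 6.61 to 42.1 ± 12.2 CPM (SD, n = 5 and 6). Tmem158 and Robo2 rose by 2.02 and 1.27 on the log2 scale. Slc9a2 was higher than in Veh under Anti-miR-21 (34.5 ± 3.32 CPM, SD, n = 6) and ACEi (30.7 ± 2.79 CPM, SD, n = 3), the direction of Nos1. Tmem158 moved the other way, by −1.51 under Anti-miR-21 and −1.35 under ACEi on the log2 scale. Under Anti-miR-21, 5 of the 9 were higher and 1 lower than in Veh, beside 28.8% and 30.5% of all genes. Under ACEi 3 were higher and 1 lower, beside 21.0% and 19.1%. Of 5 thick ascending limb markers, 4 were called lower and 1 higher in Veh than in WT, 4 higher and 1 lower under Anti-miR-21 than in Veh, and 1 higher and none lower under ACEi. Their sum, most of it Umod, was between 6841 and 7905 CPM in WT, 2062 and 4812 in Veh, 4773 and 6350 under Anti-miR-21 and 3621 and 5346 under ACEi. Their part in the level of Nos1 was not tested.

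Levels can be compared between genes only per length, for which the deposited FPKM values serve, leaving out Rgs5 and Nos1. In WT the order of mean FPKM was Crip1 (22 ± 3.60), Ptges (6.39 ± 1.96), Gja4 (3.07 ± 0.563), Akr1b7 (2.50 ± 0.437), Gja5 (1.65 ± 0.388) and Ptgs2 (0.0621 ± 0.0424), each with its SD over 5 mice. In the ACEi group Akr1b7, at 11.3 ± 1.80 FPKM, stood above Ptges, at 7.69 ± 0.586 (SD, n = 3), and every ACEi mouse had at least 9.21 FPKM of Akr1b7 and at most 8.33 of Ptges. The FPKM entry of Akr1b7 is the one marked as confounded, so its place in this order is less certain.

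The genes most like each member were sought by Pearson's correlation of log2 CPM over the 20 mice, after each gene was centred on its group means, among genes with a mean log2 CPM of at least 1. These are descriptions, and the mice share libraries and scaling. Each r is the highest among many genes over 20 mice, and how high r would reach by chance was not tested. Of 13163 genes, the one most like Nos1 was Gja5, with r = 0.82, followed by Kctd14 with 0.78. Kctd14 was also the gene most like Akr1b7, with r = 0.75. Ptgs2 was most like Ifit3 and Ifit3b, interferon-induced genes, with 0.90 and 0.88, and Ptges most like Heg1 and Egfl7, endothelial genes, with 0.88 and 0.87. Gja4 was most like Myl9, a smooth muscle myosin light chain, with 0.86, and Eid2b with 0.85. Crip1 was most like Gm26735 and Gpx8, with 0.92 and 0.90, Rgs5 most like Gm7694 and 2810001G20Rik, with 0.82 and 0.80, and Gja5 most like Iqcg and Tmco6, with 0.81 and 0.76.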

How the data were processed

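Kidney RNA of 20 mice was sequenced as 100 base paired-end reads, and each library was grouped by its label. Mapping by the authors used the OmicSoft aligner and GRCm38, and they deposited an estimated count (expected count) per Ensembl gene, not normalized, and FPKM values on mostly UCSC gene models. The FPKM values include 3 further columns that match none of the labelled mice and were not used. Of the positive estimated counts 29.1% were not whole, and counts were rounded. Genes were filtered with filterByExpr (count of at least 10, total of at least 15) and entered edgeR 4.0.16 in R 4.3.3 (TMM, quasi-likelihood test, 1 coefficient per group over all mice, Benjamini-Hochberg). For log2 CPM the prior count was 2. Alternatives were DESeq2 1.42.0, limma 3.58.1 on log2(FPKM + 1), other scalings, filters and pseudocounts, flow cell, and leaving out each mouse. The test was checked on simulated data with 100 genes changed 2-fold and 100 changed 4-fold, as many up as down. It recovered from 57.3% (Anti-miR-21 versus ACEi) to 80.2% (Anti-miR-21 versus Veh) of the 2-fold changes. Changes in most genes at once were not simulated, so the check says nothing about the scaling. Plots used matplotlib 3.10.9 in Python 3.11.15. From each pathway list the 2 called genes with the largest rise and the 2 with the largest fall per comparison could be named, and for each of the 8 genes the 2 most like it. The 8 genes and all lists were chosen with earlier results of these data known. No source says that replicates came from different litters, and p-values measure the spread between these mice. Some connexin genes are not reported here.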

Additional observations from a re-analysis of the deposited data

Results flagged for a closer look

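In 24 groups of 5 or 6 mice, the lowest and highest mouse of each of the 8 genes were compared with the rest of the group, and 1 stood apart, where chance gives about 1 in 20. Ptgs2 reached 2.66 CPM in Veh replicate 5, against 1.55 to 1.83 CPM in the other Veh mice, a gap of 0.754 of the range of the group. Without this mouse the log2 fold change was 2.27 in Veh versus WT (edgeR adjusted p = 5.6e-05), −0.84 in Anti-miR-21 versus Veh (edgeR adjusted p = 0.045) and −0.47 in ACEi versus Veh (edgeR adjusted p = 0.4), so both calls were kept.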

How the results depend on the processing

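Of 1014 values of the 8 genes recomputed under another setting, 865 kept their direction and their side of the threshold, 55 lost a call, 36 gained one and 58 changed sign. The changes of sign were in differences that were not called in the reported fit. Of them, Gja5 in Anti-miR-21 versus Veh was called lower with library totals and in the 3 fits of FPKM (limma adjusted p from 0.0067 to 0.014). The number of the 8 genes called in ACEi versus Veh was 5 with library totals and with log2(FPKM + 1), against 3. Over all genes, 9292 of 17622 and 9642 of 21460 were called there, against 7074 of 17622. In Anti-miR-21 versus WT it was 3 of 7 tested with at least 10 counts in every mouse, a filter that leaves out Ptgs2. It was 3 in flow cell A alone, against 5. Over all genes, 6429 of 13897 and 5472 of 18433 were called in these 2 settings, against 7699 of 17622. When each mouse was left out in turn, the number of the 8 called ran from 5 to 7 in Veh versus WT and 4 to 6 in Anti-miR-21 versus Veh. It ran from 2 to 3 in ACEi versus Veh and 4 to 5 in Anti-miR-21 versus WT. It was 1 in Anti-miR-21 versus ACEi and 5 in ACEi versus WT each time. The shares over all genes in these fits are not given here. Over all genes, the calls in Anti-miR-21 versus ACEi were 103 as reported, 66 with no filter, 155 with at least 10 counts in every mouse, 441 with DESeq2 and 60 with log2(FPKM + 0.1).

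With library totals alone, the log2 differences that changed sign were −0.34 for Gja5 and −0.10 for Akr1b7 in Anti-miR-21 versus Veh, −0.08 for Gja5 in ACEi versus Veh, −0.06 for Gja4 and −0.07 for Nos1 in Anti-miR-21 versus ACEi, 0.00 for Nos1 in Anti-miR-21 versus WT, and 0.08 for Nos1 and 0.26 for Ptges in ACEi versus WT. With log2(FPKM + 1) they were −0.25 for Gja5 and −0.08 for Akr1b7 in Anti-miR-21 versus Veh, −0.07 for Gja5 and −0.01 for Nos1 in ACEi versus Veh, −0.10 for Gja4 in Anti-miR-21 versus ACEi, 0.00 for Nos1 in Anti-miR-21 versus WT and 0.27 for Ptges in ACEi versus WT. The filter on FPKM gave −0.25, −0.08, −0.07, −0.10 and 0.27 for the same genes without Nos1, and log2(FPKM + 0.1) gave −0.32, −0.10, −0.08, −0.07, −0.12, 0.01 and 0.31. In Anti-miR-21 versus Veh, Gja5 was −0.08 with upper-quartile scaling, −0.01 with RLE scaling and with DESeq2, and −0.02 with at least 10 counts in every mouse and with flow cell as a term. In Anti-miR-21 versus ACEi, Gja4 was −0.01 with no filter and with at least 10 counts in every mouse and −0.00 with only the groups compared. Nos1 there was −0.00 with upper-quartile scaling and DESeq2, −0.01 with no filter, with at least 10 counts in every mouse and with only the groups compared, and −0.10 with flow cell as a term. Ptges in ACEi versus WT was 0.01 with at least 10 counts in every mouse. When each mouse was left out in turn, Gja5 in Anti-miR-21 versus Veh ran from −0.03 to 0.07, Gja4, Nos1 and Rgs5 in Anti-miR-21 versus ACEi from −0.06 to 0.10, −0.14 to 0.08 and −0.07 to 0.01, and Ptges in ACEi versus WT from −0.14 to 0.13. The causes were not tested, beyond the shift that library totals and the FPKM values give to all genes. With log2(FPKM + 1) the median over all genes was −0.13 in Anti-miR-21 versus Veh and −0.11 in ACEi versus Veh.

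Comparisons with ACEi were not run in flow cell A alone, which holds 1 ACEi mouse. No paired analysis was possible because the replicate numbers were given in the order of the samples and pair no mice. Depth limits Nos1 and Ptgs2, with at most 34 and 97 counts per mouse, and ACEi has 3 mice.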
